A study of Mus musculus with 23 samples.

Results

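The genes described here are 10 members of the contractile programme of peritubular myoid cells and of the matrix around them, out of 27466 genes counted in the table. They were chosen by name. Acta2, Myh11, Cnn1, Tagln, Des, Actg2, Tpm2 and Myl9 are the 8 contractile members, and Bgn and Dcn are the 2 matrix members. The values come from bulk stranded poly(A) RNA-seq of CD-1 mouse testes and of testicular explants. All animals were wild type. The in vivo libraries were made at 6.5 dpp (4 libraries, 1 from fresh tissue and 3 after controlled slow freezing, CSF), 10.5 dpp (3, fresh), 22.5 dpp (3, fresh) and 36.5 dpp (2, fresh). The explants were taken from 6.5 dpp testes and kept in organotypic culture, in a medium with KnockOut serum replacement and retinol, to D4 (3 libraries, fresh), D16 (2, fresh) and D30 (4, of which 3 fresh and 1 CSF). D4 corresponds in age to 10.5 dpp, D16 to 22.5 dpp and D30 to 36.5 dpp. Each culture library pooled several explants, whose central necrotic area had been removed before RNA extraction, so a culture library is not the whole explant.

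The 21 libraries used held between 28351546 and 69029328 counts. A fresh 6.5 dpp library (replicate 1) was left out by rule as culture-like. Of all genes tested, 33.9% lay below and 37.1% above the 4 other 6.5 dpp libraries in it. These shares set it against its own group only, and its likeness to cultured tissue was not tested here. One further column was an exact copy of another 6.5 dpp column and was not counted. One 6.5 dpp library, CSF replicate 3, stood apart within its group: genes with over 6000 exonic bases had a median log2 difference from the other 6.5 dpp libraries of -0.71, against 0.33 for genes under 2000 bases. Its Myh11 level (60.2 CPM) and its Dcn level (1460 CPM) lie outside the range of the other 6.5 dpp libraries, so the comparisons and correlations that use 6.5 dpp are given with and without it. Libraries of other groups differed by gene length too. Long genes minus short genes gave -0.73 for 36.5 dpp replicate 1 and -0.77 for D16 replicate 1, each against the other library of its group, and 0.74 for D30 fresh replicate 3 against the other D30 libraries. In 36.5 dpp replicate 1, as in CSF replicate 3, Myh11 was the lower (13.3 against 28.2 CPM) and Dcn the higher (160 against 50.6 CPM). The study calls the libraries biological replicates, but whether each came from a separate animal is not given in the sources used here, so p-values measure the spread between these libraries.

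Peritubular myoid cells are flat smooth muscle-like cells that wrap the seminiferous tubule. Their contraction moves the luminal content, and together with Sertoli cells they lay down the basement membrane. They acquire a smooth muscle gene programme during postnatal life, downstream of Desert hedgehog from Sertoli cells and of androgen action. None of these genes is restricted to the peritubular cell: vascular smooth muscle and pericytes express the contractile genes too, and Bgn and Dcn are made by many stromal cells. In bulk tissue, fewer cells of a type and less RNA per cell cannot be told apart. Bulk counts also do not show which cells the reads of a member come from, germ cells included.

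Most of the members are components of the actin-myosin apparatus. Acta2 encodes smooth muscle alpha-actin and Actg2 encodes smooth muscle gamma-actin, both of which polymerize into the thin filament. Myh11 is the smooth muscle myosin heavy chain and Myl9 its regulatory light chain. Tpm2 (tropomyosin), Cnn1 (calponin) and Tagln (transgelin, SM22) bind the thin filament, and Des (desmin) is the muscle intermediate filament. Bgn (biglycan) and Dcn (decorin) are small leucine-rich proteoglycans of the extracellular matrix.

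Smooth muscle genes are classically regulated by serum response factor through a CArG box. Promoter sequence from RefSeq (GRCm38.p6, 250 bases before to 50 after the annotated start) was matched for 6 of the 10 members, namely Acta2, Cnn1, Des, Tpm2, Myl9 and Bgn. The promoters of 3 members are shown because Acta2 and Tpm2 had the highest correlation of any pair of members, given further on, and Myl9 alone of the 6 held an exact CArG box in this window. Capitals mark that box, which begins 161 bases before the start. The motif reads the same on both strands and was searched without mismatch. Stretches that differ from it at a base are neither counted nor marked, such as ccctatatgg and ccttgtttgg in the Acta2 promoter. It occurs in 1.63% of the 32851 promoters of the same length in the table, and a match or its absence is a description of these letters only.
Acta2 promoter, chr19:34255324-34255623, minus strand: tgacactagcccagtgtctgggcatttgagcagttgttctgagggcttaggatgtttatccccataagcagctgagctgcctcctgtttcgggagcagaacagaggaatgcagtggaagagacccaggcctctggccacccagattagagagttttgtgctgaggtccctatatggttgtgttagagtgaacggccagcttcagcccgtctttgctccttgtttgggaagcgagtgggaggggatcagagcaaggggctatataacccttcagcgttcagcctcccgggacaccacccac
Tpm2 promoter, chr4:43523505-43523804, minus strand: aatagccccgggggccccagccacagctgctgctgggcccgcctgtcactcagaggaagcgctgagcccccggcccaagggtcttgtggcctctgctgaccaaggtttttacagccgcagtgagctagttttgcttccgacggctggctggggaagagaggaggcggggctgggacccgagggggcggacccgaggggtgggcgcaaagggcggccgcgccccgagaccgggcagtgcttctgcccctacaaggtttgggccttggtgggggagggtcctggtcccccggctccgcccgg
Myl9 promoter, chr2:156775214-156775513, plus strand: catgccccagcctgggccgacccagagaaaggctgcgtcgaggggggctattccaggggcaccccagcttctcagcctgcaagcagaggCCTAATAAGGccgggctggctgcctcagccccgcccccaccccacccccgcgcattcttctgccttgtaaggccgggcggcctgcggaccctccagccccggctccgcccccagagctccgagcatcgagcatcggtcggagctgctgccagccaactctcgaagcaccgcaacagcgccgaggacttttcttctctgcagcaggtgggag

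Levels are CPM, the share of the library total scaled to a common depth, unless a sentence says otherwise. Acta2 was among the most abundant members. At 6.5 dpp its CPM values were 619, 516, 582 and 748, and at 10.5 dpp they were 556, 631 and 597. At 22.5 dpp they were 174, 263 and 209, and at 36.5 dpp 49.6 and 42.6. The last 3 ages did not overlap, and the mean at 10.5 dpp was 12.9-fold that at 36.5 dpp. In culture the CPM values of Acta2 were 233, 323 and 394 at D4, 188 and 166 at D16, and 168, 162, 304 (fresh) and 238 (CSF) at D30. The D4 libraries all lay under the 6.5 and 10.5 dpp libraries, and the D16 and D30 libraries overlapped.

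Myh11 had CPM values of 254, 264 and 279 at 10.5 dpp, 93.9, 171 and 107 at 22.5 dpp, and 13.3 and 28.2 at 36.5 dpp. In culture it measured 114, 132 and 144 CPM at D4, 48.6 and 78.6 at D16, and between 51.8 and 132 at D30. Myl9 had a mean of 371 CPM at 10.5 dpp, 135 at 22.5 dpp and 40.7 at 36.5 dpp, against 225 at D4, 173 at D16 and 199 at D30. Tpm2 followed the same order in vivo, with means of 85.0, 41.3 and 11.1 CPM at the 3 later ages. Cnn1, Tagln and Des were lower, with 10.5 dpp means of 22.8, 10.6 and 16.3 CPM.

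Per kilobase of exon, which allows levels to be set between genes, Myl9 (319 CPM per kilobase) and Acta2 (271) led at 10.5 dpp. Dcn (91.2), Bgn (45.8), Myh11 (35.0) and Tpm2 (29.2) came next. Cnn1 (8.34), Actg2 (7.27), Tagln (5.32) and Des (4.33) were the lowest. Acta2, Actg2 and the other actins have near-identical coding sequence, and how reads shared between them were counted is not given in the sources used here, so the levels of the 2 actins are uncertain. Of the 1988 exonic bases of Tagln, 67.9% are overlapped on the opposite strand by Pcsk7 and Gm48529, and the counting strand is not stated, so its values are uncertain too.

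Actg2 ran against the other contractile members. Its CPM values lay between 5.7 and 12.4 at 6.5 dpp, and were 9.2, 13.8 and 10.9 at 10.5 dpp. They were 18.7, 9.7 and 19.0 at 22.5 dpp and reached 281 and 325 at 36.5 dpp, a mean 26.8-fold that at 10.5 dpp. In culture they were 6.8, 7.9 and 10.2 at D4, 11.5 and 5.7 at D16, and 40.8, 30.4, 23.5 (fresh) and 20.7 (CSF) at D30. The D30 libraries lay above every other culture library and under both 36.5 dpp libraries. At 36.5 dpp Actg2 was the highest of the members per kilobase, at 195 CPM per kilobase against 21.0 for Acta2.

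At each matched age, every culture library lay above every in vivo library in the CPM of both matrix members. Over all genes tested, 17.3% lay wholly above at D4. The share was not counted at D16 and D30, so the separation there cannot be called particular to these genes. Bgn measured 271, 295 and 273 CPM at 10.5 dpp, 55.5, 95.3 and 56.4 at 22.5 dpp, and 14.4 and 15.8 at 36.5 dpp. In culture it measured 356, 416 and 416 CPM at D4, 163 and 172 at D16, and between 149 and 276 at D30. Dcn measured 538, 561 and 498 CPM at 10.5 dpp, 212, 262 and 161 at 22.5 dpp, and 160 and 50.6 at 36.5 dpp. In culture it measured 713, 955 and 899 CPM at D4, 861 and 671 at D16, and 494, 786, 787 (fresh) and 1040 (CSF) at D30. Within culture, every Bgn library of D16 lay under those of D4, while the Dcn libraries of the culture days overlapped.

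**Figure D1:**
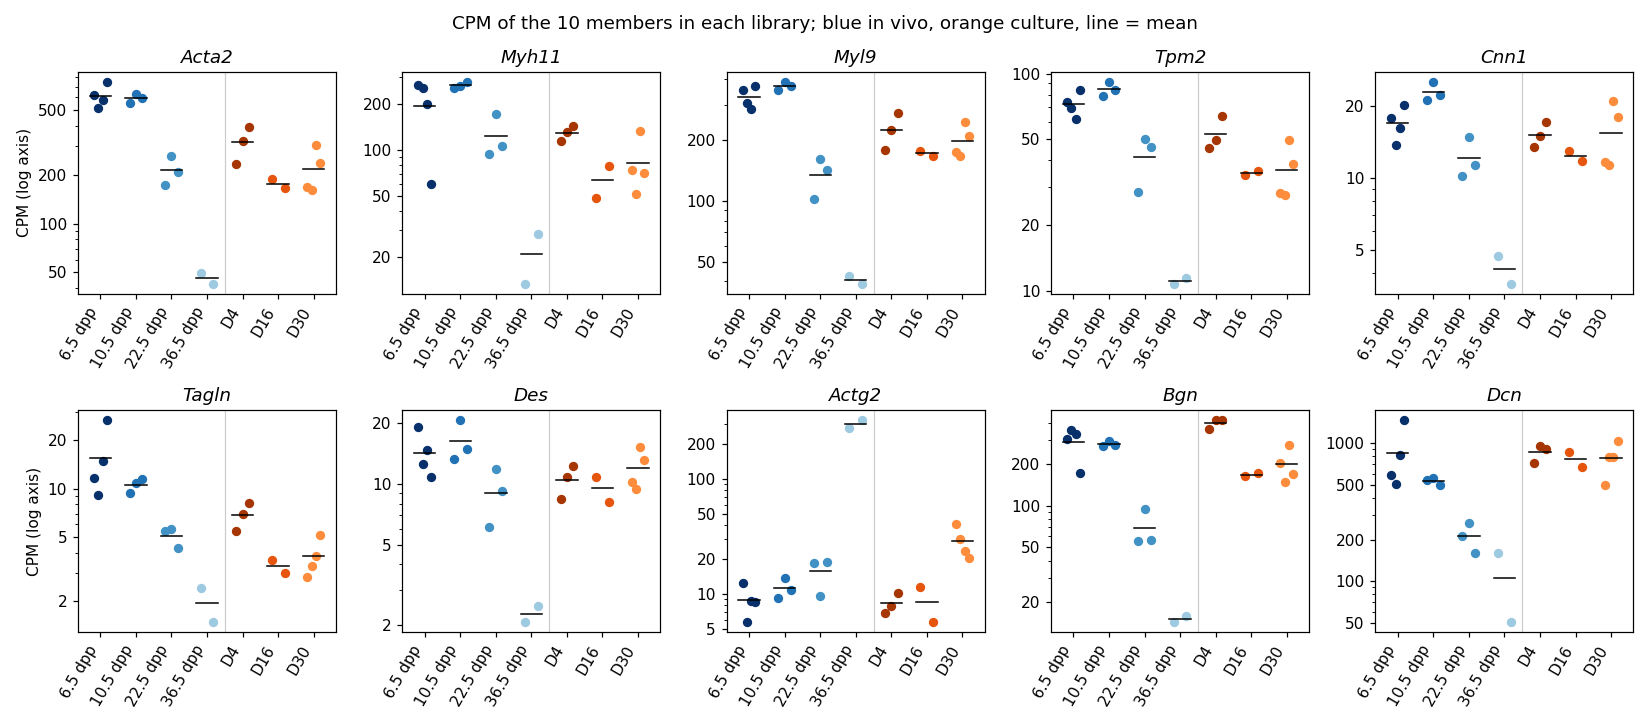
CPM of each member (log axis) in the 21 libraries, by in vivo age (blue) and culture day (orange), with a line at the mean. All members but Actg2 are lowest at 36.5 dpp, while Actg2 is highest there, at 281 and 325 CPM.

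Over log2(CPM + 1) values of the 21 libraries, and as a description, the 9 members other than Actg2 had a positive Pearson's r with each other, from 0.35 for Myh11 and Dcn upwards. It was 0.98 for Acta2 and Tpm2 and 0.97 for Acta2 and Myl9, and Actg2 had a negative r with all other members (-0.80 with Acta2). Without CSF replicate 3 the r of Acta2 and Tpm2 was still 0.98 and the highest of any pair, that of Myh11 and Dcn was 0.43, and those of Myh11 with Tagln (0.64) and with Acta2 (0.84) moved to 0.87 and 0.95. These points share library depth and tissue composition. Among non-members with at least 1 CPM, the genes most like the mean standardized profile of the members were Tle6 (r = 0.98), Nle1, Mief2, Ddx39b and Fbxl6 (0.97 each). The closest to Acta2 and also to Tpm2 was Nsun5 (0.98 for each), and the closest to Myl9 was Mief2 (0.98). For Myh11 it was Col4a4 (0.98), a type IV collagen chain of basement membranes. For Cnn1 it was Ptgis (0.96), the prostacyclin synthase, for Tagln it was Idh2 (0.97), and for Des it was Inha (0.95), the inhibin alpha chain. For Bgn it was Pald1 (0.99), for Dcn Slc25a4 (0.98), and for Actg2 Slc36a3 (0.98). Without CSF replicate 3 another gene came first for the mean profile (Bcs1l), Acta2 (Nop16), Bgn (Adgra2) and Dcn (2310030G06Rik), with r within 0.01 of that of the gene named above.

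The first comparisons followed the testis in vivo. Fold changes here are log2 values from edgeR's quasi-likelihood test on TMM-scaled counts, adjusted by Benjamini-Hochberg over 19255 genes, and a gene is called at an adjusted p under 0.05. All 10 members were tested in every comparison. Between 6.5 and 10.5 dpp none of the 10 was called in edgeR, and none had an unadjusted p under 0.05, while 0.675% of all genes were called higher and 0.467% lower at 10.5 dpp. None was called without CSF replicate 3 either.

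From 10.5 to 22.5 dpp, 6 of the 10 members fell and none rose, against 27.9% of all genes called lower and 33.6% called higher. Bgn fell by 1.74 ± 0.23 (SE; adjusted p = 5.64e-06, edgeR) and Acta2 by 1.18 ± 0.23 (adjusted p = 0.000287). Myl9 fell by 1.17, Dcn by 1.05, Tpm2 by 0.76 and Cnn1 by 0.64 on the log2 scale. Actg2 had a log2 change of 0.80 that was not called (adjusted p = 0.0583, edgeR). The median of the 10 members was -0.79, against 0.06 over all genes tested.

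From 22.5 to 36.5 dpp, 7 members fell and 1 rose, against 27.5% of all genes called lower and 23.3% called higher. Myh11 fell by 2.04 ± 0.49 (adjusted p = 0.0022, edgeR), Acta2 by 1.70 ± 0.27 and Bgn by 1.66 ± 0.27. Des fell by 1.45, Tpm2 by 1.37, Myl9 by 1.21 and Cnn1 by 1.02. Actg2 rose by 4.75 ± 0.42 (adjusted p = 2.22e-07, edgeR). Tagln (-0.88) and Dcn (-0.50) were not called, and the Dcn values at 36.5 dpp were 160 and 50.6 CPM.

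Other cell types changed in these libraries at the same time. The summed CPM of 9 germ cell markers, among them the spermatid protamines Prm1 and Prm2, went from 873 to 1111 at 10.5 dpp to between 16689 and 20459 at 36.5 dpp. The summed CPM of 9 Sertoli cell markers went from between 5508 and 5747 to between 710 and 931. Clu carried most of that sum, with means of 3728 CPM at 10.5 dpp and 671 at 36.5 dpp. The 7 contractile members without Actg2 went from between 1287 and 1432 to between 125 and 129. Prm1 had a mean of 2.78 CPM at 22.5 dpp and 4152 at 36.5 dpp, the step in which Actg2 rose. The part of the germ cell increase in the members' fall, or in the rise of Actg2, was not tested. When the counts were scaled instead to 10 somatic genes (Gata4, Gata6, Wt1, Sox9, Nr5a1, Nr2f2, Tcf21, Lhx9, Zfpm2 and Vim), which are mostly Sertoli and stromal genes, the median of all genes moved to 1.54 in the step to 22.5 dpp, and 4 of the 8 contractile members were called higher and none lower, against 72.5% of all genes called higher and 2.84% lower. Relative to these somatic genes the log2 change of Cnn1 was 0.83, of Des 0.88, of Tpm2 0.72 and of Actg2 2.35. In the step to 36.5 dpp on that scale, Acta2 (-0.87), Myh11 (-1.16) and the matrix member Bgn (-0.80) were called lower and Actg2 (5.51) higher. They stand against 4.12% of all genes called lower and 40.1% higher. The rise of Actg2 was seen on both scales.

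**Figure D2:**
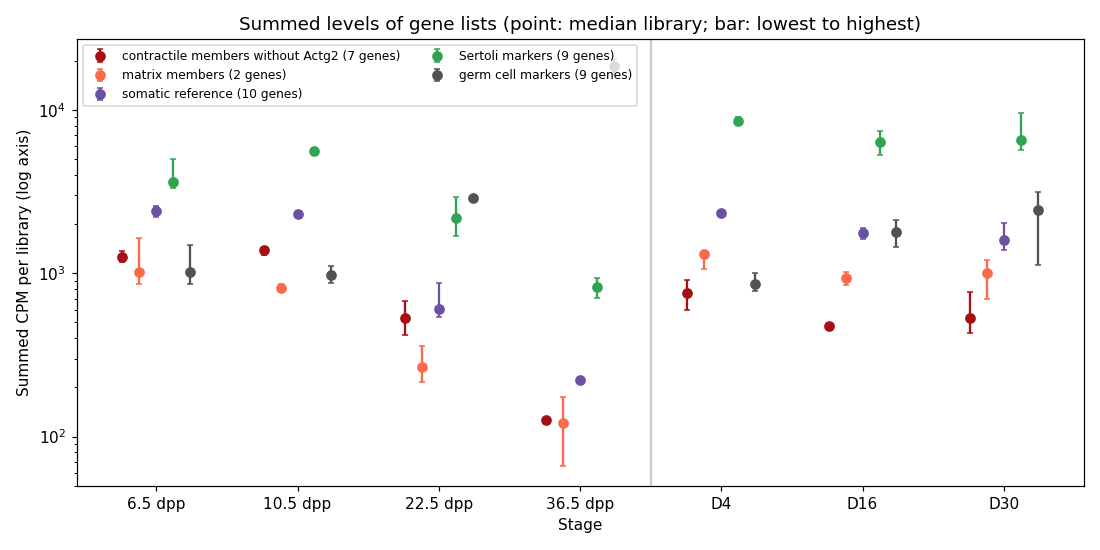
Summed CPM per library (log axis) of the 7 contractile members without Actg2, the 2 matrix members, 10 somatic reference genes, 9 Sertoli markers and 9 germ cell markers, by stage. Points are the median library and bars run from the lowest to the highest. Germ cell markers reach 16689 to 20459 at 36.5 dpp, while the other lists are lowest there.

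Within culture, 3 of the 8 contractile genes (Acta2, Tagln and Myl9) were lower at D4 than in the tissue of origin. Of the 10 members, these 3 fell from 6.5 dpp to D4 and none rose, against 10.1% of all genes called lower and 10.8% called higher. Tagln fell by 1.19 ± 0.33 (adjusted p = 0.0154, edgeR), Acta2 by 0.95 ± 0.22 (adjusted p = 0.00482) and Myl9 by 0.54 ± 0.17 (adjusted p = 0.034). The libraries of the other 5 contractile members overlapped between D4 and 6.5 dpp, and none was called, with log2 changes from -0.54 for Myh11 to -0.07 for Actg2. Without CSF replicate 3 there were 2 members called, and without D4 replicate 1 or without D4 replicate 2 there was 1. The share of all genes called without these libraries is not given here. With only the fresh 6.5 dpp library as reference none of the members was called.

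From D4 to D16, Acta2 fell by 0.79 ± 0.26 (adjusted p = 0.0364, edgeR) and Bgn by 1.19 ± 0.26 (adjusted p = 0.00235). These 2 of 10 members stand against 5.48% of all genes called lower, and no member was among the 18.4% called higher. One of the 2 calls was lost without D4 replicate 2, D4 replicate 3, D16 replicate 1 or D16 replicate 2. From D16 to D30 the only member called was Actg2, which rose by 1.78 ± 0.41 (adjusted p = 0.0309, edgeR), against 1.46% of all genes called higher and 0.332% lower. That call was lost when D16 replicate 2, D30 fresh replicate 1 or D30 fresh replicate 2 was left out. Germ cell markers summed to between 1118 and 3130 CPM at D30, against 1451 to 2133 at D16. That sum hides a rise of the spermatid protamines. The mean of Prm1 was 1.18 CPM at D16 and 200 at D30, and that of Prm2 1.71 and 346. The other markers of the sum are not given singly for this step. The part of germ cells in the rise of Actg2 was not tested.

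The comparison of each culture day with its age-matched testis asks how culture departs from development in vivo. At D4 against 10.5 dpp, the libraries of 7 contractile members lay wholly under those of 10.5 dpp, while those of Bgn and Dcn lay wholly above and those of Actg2 overlapped. Over all genes tested, 31.2% lay wholly under and 17.3% wholly above in D4. In edgeR 2 of 10 members were called lower and none higher, against 3.18% of all genes called lower and 4.92% called higher. They were Acta2, which was lower by a log2 change of -0.83 ± 0.23 (adjusted p = 0.0332), and Myl9, with -0.64 ± 0.18 (adjusted p = 0.038). Bgn (0.59, adjusted p = 0.136) and Dcn (0.77, adjusted p = 0.327) were not called in edgeR. When only the D4 and 10.5 dpp libraries entered the fit, 7 members were called lower and 2 higher, against 19.4% of all genes called lower and 20.3% higher in that fit. Neither call held without D4 replicate 1, without D4 replicate 2, or without any one of the 3 libraries of 10.5 dpp.

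At D16 against 22.5 dpp the 2 matrix members were higher in culture and none was lower, against 14.0% of all genes called higher and 11.8% called lower. Bgn had a log2 change of 1.14 ± 0.25 (adjusted p = 0.00429, edgeR) and Dcn of 1.71 ± 0.44 (adjusted p = 0.0114). No contractile member was called in edgeR with all libraries: Actg2 had -1.05 (adjusted p = 0.0652, edgeR), Myh11 -1.10 (adjusted p = 0.0854), Tagln -0.78, Acta2 -0.43 and Myl9 0.21. DESeq2 called Myh11 (-1.20) and Actg2 (-1.15) lower beside Bgn and Dcn higher, against 17.4% of all genes lower and 12.5% higher. With fresh libraries only, edgeR called Myh11 (-1.10) and Tagln (-0.78) lower beside the same 2 matrix members, against 13.7% of all genes lower and 16.9% higher. With RLE factors in edgeR, Actg2 alone of the contractile members was called (-1.15). Without 22.5 dpp replicate 3 there was 1 member called in place of 2. Germ cell markers were lower in culture (1451 to 2133 summed CPM, against 2825 to 2909) and Sertoli markers higher (5305 to 7456, against 1700 to 2948). Clu carried most of the Sertoli sum, with means of 4892 CPM at D16 and 1777 at 22.5 dpp. Rhox5 was the only Sertoli marker called lower (-2.02), and the others were called higher.

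At D30 against 36.5 dpp, 8 of 10 members were higher in culture and 1 was lower, against 32.4% of all genes called higher and 35.0% called lower. Bgn had a log2 change of 3.08 ± 0.28 (adjusted p = 1.74e-07, edgeR) and Dcn of 2.25 ± 0.48. Des (1.74), Myl9 (1.64), Acta2 (1.59), Myh11 (1.32), Cnn1 (1.24) and Tpm2 (1.04) were also called higher. Tagln (0.31, adjusted p = 0.476, edgeR) was not. Actg2 was lower in culture by a log2 change of -4.02 ± 0.37 (adjusted p = 1.59e-07, edgeR). The protamines Prm1 (-4.98) and Prm2 (-5.03) were called lower too. So were the germ cell markers Tnp1 (-4.87), Odf1 (-4.54), Acr (-2.21), Ddx4 (-1.05) and Piwil1 (-1.04). Of the summed germ cell markers, only Dazl (0.57) and Sycp3 (0.08) were not called. The part of germ cells in the Actg2 difference was not tested. The study's volcano plots used a log2 change of 2 or more in either direction and an adjusted p no higher than 0.001. At that threshold, applied to the edgeR values, no member was called at D4 or D16, where 1.07% and 1.42% of all genes passed. At D30 that threshold was passed by 3 members (Bgn, Dcn and Actg2) and by 21.3% of all genes.

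These directions depend on what the counts are scaled to. Library-size scaling alone moved the median of all genes by 0.15 at D16 and by 0.63 at D30 relative to TMM. On the scale of the 10 somatic genes, the median of all genes was -1.08 at D16 and -1.71 at D30. On that scale all 8 contractile members were called lower at D16, against 53.0% of all genes called lower and 2.47% called higher, with Myh11 at -2.09, Tagln at -1.76, Acta2 at -1.39 and Myl9 at -0.77. At D30 on that scale 3 contractile members were called lower, namely Actg2 (-5.67), Tagln (-1.38) and Tpm2 (-0.68), against 71.0% of all genes called lower and 4.65% called higher. Acta2 (-0.13), Myl9 (-0.06) and Des (0.03) lay near 0, and Bgn (1.38) was the only member called higher. At D4, where the median of all genes was -0.03 on that scale, no member was called, with Acta2 at -0.85 and 2.94% and 3.96% of all genes called lower and higher. At D30 the sign of Acta2, Myh11, Cnn1, Tagln, Tpm2 and Myl9 turned between the 2 scales, whereas Actg2 was lower and Bgn higher in culture on both.

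**Figure D3:**
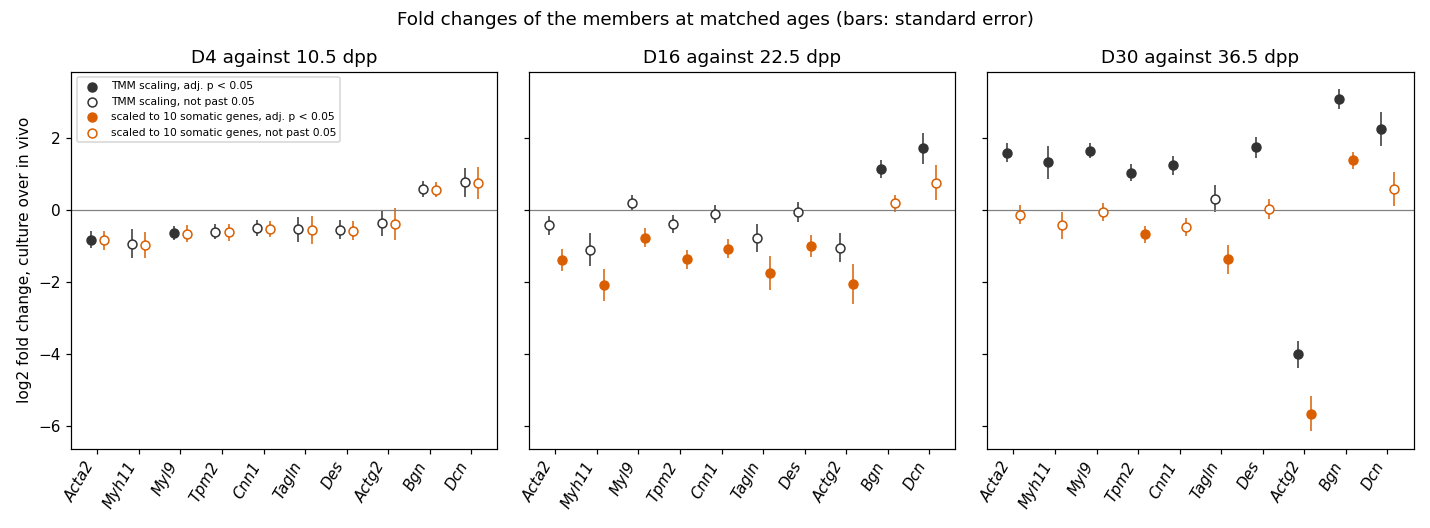
Log2 fold change, culture over in vivo, of each member at the 3 matched ages, with standard errors, on TMM scaling (grey) and scaled to 10 somatic genes (orange). Filled points passed an adjusted p of 0.05. The 2 scales overlay at D4 and separate at D16 and D30, where Acta2 moves from 1.59 to -0.13.

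A ratio of 2 genes within a library does not depend on the library scale. Each of 7 contractile members was therefore set over a non-muscle relative, as log2 of the ratio of counts. Other non-muscle relatives, such as Cnn2, Tpm3 and Myl12b, were not used as partners. Actg2 was set over the other smooth muscle actin (Actg2/Acta2) and biglycan over decorin (Bgn/Dcn). Culture was compared with in vivo over the 3 matched ages by an exact permutation test within ages (two-sided, 3000 permutations, Benjamini-Hochberg over 9 ratios). Of the 9 ratios, 6 passed an adjusted p of 0.05, and all 6 were lower in culture. They were 5 of the muscle over non-muscle ratios, and Actg2/Acta2. For calponin, Cnn1/Cnn3 differed by a mean of -2.06 (exact permutation p = 0.000333, the smallest the permutations can give, adjusted p = 0.00075). Its means were -3.46 at 10.5 dpp and -4.31 at D4, -1.60 at 22.5 dpp and -4.00 at D16, and -0.79 at 36.5 dpp and -3.72 at D30. Tagln/Tagln2 differed by -1.96, Tpm2/Tpm4 by -1.45 and Des/Vim by -1.003, each with the same exact permutation p. For these 4 ratios the culture libraries lay wholly under the in vivo libraries at all 3 ages. For Tagln, whose exons overlap genes on the other strand, the uncertainty given above applies to the ratio as well.

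Myl9/Myl12a differed by -0.78 (exact permutation p = 0.001, adjusted p = 0.0018), with D30 and 36.5 dpp libraries that overlapped. Actg2/Acta2 differed by -1.92 (exact permutation p = 0.0283, adjusted p = 0.0425), and its difference was -5.63 at D30 but 0.49 at D4. That call was lost on leaving out 22.5 dpp replicate 1 or 3, either 36.5 dpp library, D16 replicate 2 or any D30 library. Acta2/Actb (-0.14, adjusted exact permutation p = 0.755), Myh11/Myh10 (0.58, adjusted p = 0.248) and Bgn/Dcn (-0.03, adjusted p = 0.9) did not pass. For Acta2/Actb the differences had opposite signs by age, at -0.66 at D4, -1.24 at D16 and 1.48 at D30. The mean of Tpm2/Tpm4 was -0.21 at 10.5 dpp and 1.14 at 36.5 dpp in vivo, against -1.09 at D4 and -0.65 at D30 in culture.

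**Figure D4:**
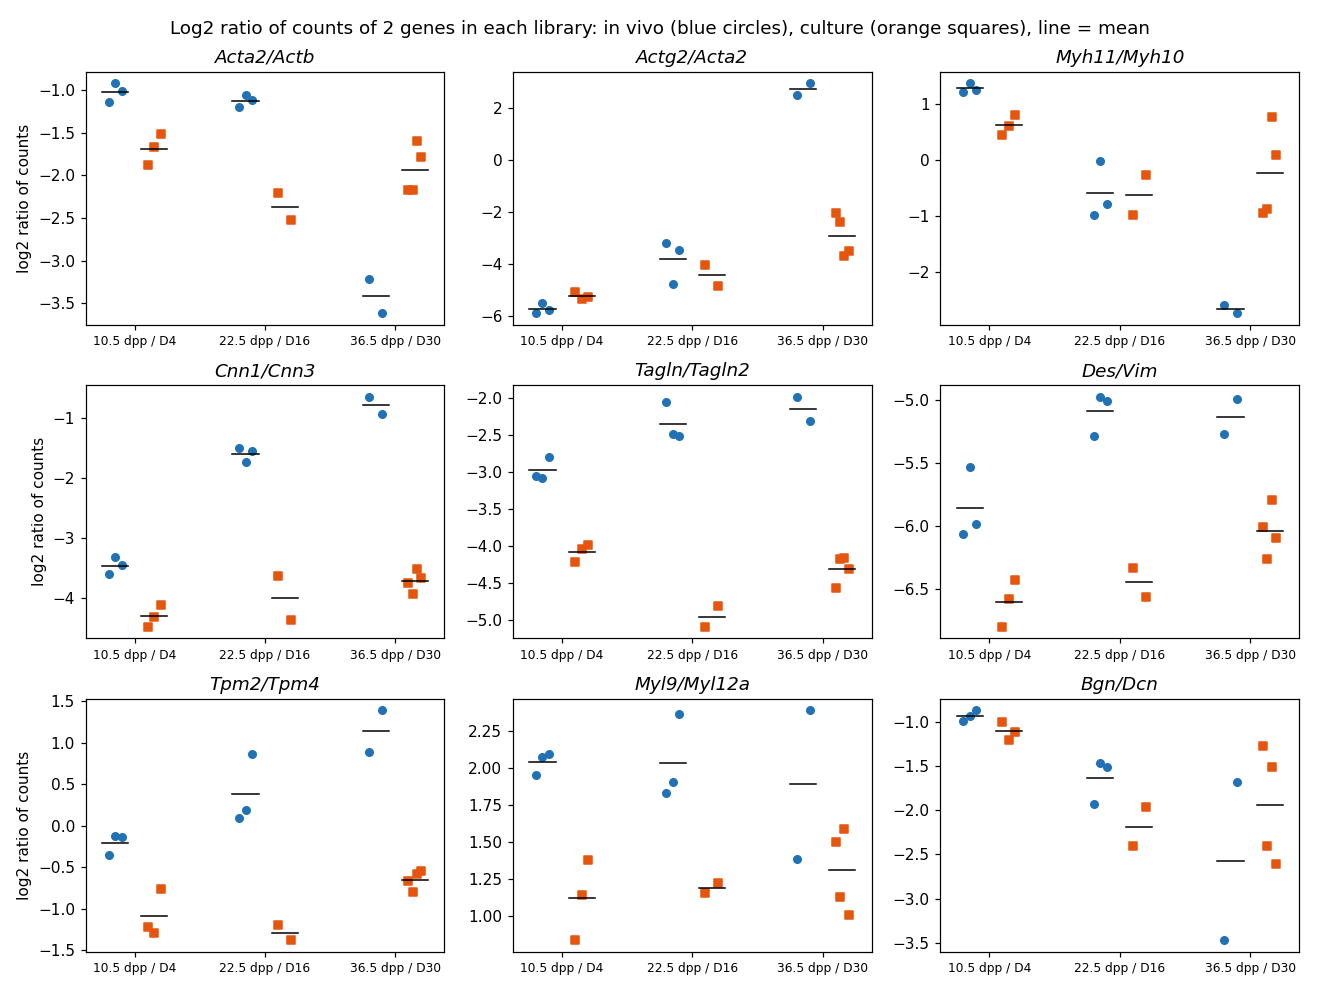
Log2 ratio of counts of 7 contractile members over a non-muscle relative, of Actg2 over Acta2 and of Bgn over Dcn in every library at the 3 matched ages, in vivo (blue circles) and culture (orange squares), with a line at the mean. Cnn1/Cnn3, Tagln/Tagln2, Des/Vim and Tpm2/Tpm4 are lower in culture at each age without overlap.

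The non-muscle partners differed too. At D30 against 36.5 dpp, Cnn3 had a log2 change of 4.15 (adjusted p = 7.31e-09, edgeR) and Vim of 2.64, whereas Myh10 had -1.13 and Actb 0.07. Cnn3 measured a mean of 251 CPM at 10.5 dpp and 7.15 at 36.5 dpp, against 298 at D4 and 199 at D30. A lower ratio in culture shows unequal change of the 2 genes, not which of them changed. It also holds for the partner used only. At D30 the partners Tpm4, Tagln2 and Myl12a had log2 changes of 2.81, 2.50 and 2.13. Of the relatives not used, Cnn2 had 2.07, Myh9 1.91, Tagln3 1.15, Tpm3 0.92, Myl12b 0.91, Actg1 0.66 and Myh14 -0.97. At D4 Cnn2 had -0.82, where Cnn1 had -0.51. Ratios over these relatives were not tested. Cnn3 and Vim are also expressed by Sertoli cells, and the part of Sertoli cells in these ratios was not tested.

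The culture effect itself was compared between ages. Between D4 and D16 no member was called in edgeR (1 had an unadjusted p under 0.05, and 1 was called without 22.5 dpp replicate 2), while 5.26% of all genes were called with a larger and 4.36% with a smaller culture effect at D16. Between D16 and D30, 7 members had a larger culture effect at D30 and 1 a smaller one, against 11.5% and 8.63% of all genes. Myh11 differed by 2.43 ± 0.65, Acta2 by 2.02 ± 0.37 (adjusted p = 0.00134, edgeR), Bgn by 1.94, Des by 1.80, Myl9 and Tpm2 by 1.44 and Cnn1 by 1.35. Actg2 differed by -2.97 ± 0.53. Scaled to the somatic genes, Acta2 (1.27), Bgn (1.19) and Actg2 (-3.61) were called, against 1.61% of all genes with a larger and 13.5% with a smaller culture effect. Both differences draw on the 22.5 dpp and D16 libraries.

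Freezing left no called difference in the members. With stage in the fit, CSF against fresh called 0% of all genes higher and 0% lower in edgeR, and 1261 genes, none of them a member, had an unadjusted p under 0.05. DESeq2 called 4 genes and had 1549 at an unadjusted p under 0.05. Without CSF replicate 3, edgeR called 1 gene, which was no member, and Actg2 (-0.72) was the only member with an unadjusted p under 0.05. The CSF libraries were 3 at 6.5 dpp and 1 at D30, against 1 fresh library at 6.5 dpp, and the missing calls do not show that the groups were alike.

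Other genes of the smooth muscle contractile apparatus were counted from a list. Of 23 further contractile genes, 2 were lower and none higher at D4, 5 higher and none lower at D16, and 18 higher and 1 lower at D30, with medians of -0.26, 0.24 and 1.42. Over all genes 4.92% were called higher and 3.18% lower at D4, 14.0% and 11.8% at D16, and 32.4% and 35.0% at D30, and the counts of each list that follows stand against these shares. At D30 Hspb1, a small heat shock protein, had a log2 change of 2.79 and Pdlim7, an actin-associated scaffold protein, of 1.56. The most abundant per kilobase were Csrp1 (80 CPM per kilobase), Flna (filamin A, 42.5) and Tpm1 (32.4). On the somatic scale 12 of these 23 were called lower and 2 higher at D16, where 53.0% of all genes were called lower.

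Of 7 regulators of the smooth muscle programme, none was called at D4, and at D16 Elk1 alone was called, higher in culture (1.04). At D30, 3 were higher, among them Myocd (myocardin, 2.13 on the log2 scale) and Elk1 (1.78), and 2 were lower, Klf4 (-2.45) and Srf (-0.67). Srf measured a mean of 77.7 CPM at 10.5 dpp and 63.6 at D4. Klf4 measured 29.3 CPM at 22.5 dpp and 111 at 36.5 dpp, against 30.2 at D16 and 31.6 at D30. Of 18 signals and receptors of the peritubular cell, 1 was higher and 2 lower at D4, 6 higher and 3 lower at D16, and 13 higher and 2 lower at D30. Edn1, the precursor of the contractile peptide endothelin-1, was higher at all 3 ages, with log2 changes of 1.06 (adjusted p = 0.00457, edgeR), 2.89 and 4.26. Oxtr, the oxytocin receptor, was lower at D16 (-2.13) and D30 (-2.53). Dhh, the Sertoli cell hedgehog ligand, had -0.01 at D4 (not called), 1.42 at D16 and 2.37 at D30. The 2 genes of this list called lower at D4 were P2rx1 (-2.01) and Gli1 (-1.16). Gli1 had 0.15 at D16 (not called) and 2.09 at D30, where it was called higher.

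Of 8 other small leucine-rich proteoglycans that could be tested, 3 were higher and none lower at D4, 4 higher and 1 lower at D16, and 6 higher and 1 lower at D30. Lum (lumican) had log2 changes of 1.98, 2.64 and 2.52, and Prelp of 1.59, 1.18 and 4.52, each called. Epyc, the 1 that was lower at D30, had -1.95.

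Markers of other smooth muscle, endothelial and stromal cells moved in these comparisons as well. Pericyte and vascular smooth muscle markers (8 genes) summed to between 375 and 479 CPM at D4, against 392 to 436 at 10.5 dpp, and to between 183 and 228 at D30, against 25.8 to 29.6 at 36.5 dpp, with 7 of 8 called higher at D30. Mcam carried most of that sum at D4, and single markers moved both ways there. Rgs5 (-2.03, adjusted p = 0.000608, edgeR) and Cspg4 (-1.02) were lower, as Acta2 and Myl9 were, and Kcnj8 (2.02) and Abcc9 (1.32) were higher. Endothelial markers summed to between 280 and 394 CPM at D16, against 58.4 to 87.0 at 22.5 dpp, with 7 of 8 called higher. Fibroblast markers (6 genes) summed to between 643 and 749 CPM at D4 and 702 to 733 at 10.5 dpp, with Ly6a (3.26) the only one called. At D30 they summed to between 435 and 597 CPM, against 64.8 to 70.0 at 36.5 dpp, and 5 of the 6 were called higher (Ly6a 3.38, Cd34 2.76, Tcf21 2.44, Pdgfra 2.37 and Dpt 0.99) and Pi16 lower (-1.74). Bgn and Dcn were higher in that same comparison. Leydig markers went the other way, with all 6 lower at D30. Of the mesothelium markers, Lrrn4 alone was called, and it was higher at all 3 ages (1.36 to 2.93). At D4, D16 and D30, Upk3b had -0.64, -0.88 and 1.12 and Upk1b 0.53, 0.58 and -0.85. Msln had -0.42, -0.53 and 0.49 and Krt19 1.17, 0.26 and 0.83, none of them called. Upk3b and Msln had at most 3 counts in each 36.5 dpp library. The 7 striated muscle markers summed to at most 53.8 CPM in any stage. The part of these cell types in the members' levels was not tested.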

How the data were processed

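Whole testes and explants of CD-1 mice were profiled by bulk poly(A) RNA-seq with single-end reads. Per the labels, the deposited values are raw read counts per gene, made by the authors with bcl2fastq 2.17.1.14, STAR 2.7.3a and HTSeq 0.12.4 on GRCm38. The strand setting and annotation release are not given in the sources used here. The table has 27466 genes and 23 columns. Levels are CPM of the library total, and per kilobase values use the union of exons in GENCODE M21.

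Members and lists were chosen with earlier results of these data known. Counts were fitted with edgeR 4.0.16 (R 4.3.3) as 7 stages in 1 quasi-likelihood fit, with TMM factors and filterByExpr, which kept 19255 genes. Alternatives were DESeq2 1.42.0, other scaling factors, a fit without the filter, leaving out libraries, and limma 3.58.1 for the ratios. Ratios used a pseudocount of 0.5. The edgeR script was tested on simulated data. Named genes were the members, the partners in the ratios, in each list the 3 highest per kilobase and up to 2 called genes either way at D30, by p, and the genes of nearest profile. A few further list genes were named to show how single genes of a list differed. Intervals between libraries cover these libraries only. One gene that the naming rule selects is not reported here.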

Additional observations from a re-analysis of the deposited data

Results flagged for a closer look

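Of the 10 members, 8 were singled out because their culture effect at D30 against 36.5 dpp differed from that at D16 against 22.5 dpp in edgeR's test of the difference. The differences, in log2, were 2.02 for Acta2, 2.43 for Myh11, 1.35 for Cnn1, 1.80 for Des, 1.44 for Tpm2, 1.44 for Myl9 and 1.94 for Bgn, all larger at D30, and -2.97 for Actg2. Scaled to the somatic genes, 3 of these members were called, Acta2 (1.27) and Bgn (1.19) with a larger and Actg2 (-3.61) with a smaller culture effect. In groups of 4 libraries (6.5 dpp and D30), no member had a library far from the others by Dixon's criterion.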

How the results depend on the processing

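At the study's volcano plot threshold, 1 member was called for 36.5 dpp against 22.5 dpp and 3 for D30 against 36.5 dpp. No member was called in any other comparison, with 0 for 22.5 dpp against 10.5 dpp, D4 against 6.5 dpp and D16 against D4. There were likewise 0 for D30 against D16, D4 against 10.5 dpp, D16 against 22.5 dpp and the difference between D30 and D16. With the culture-like 6.5 dpp library included, 3 members were called for 22.5 dpp against 10.5 dpp, 0 for D4 against 6.5 dpp, 1 for D16 against D4, 0 for D30 against D16, 0 for D4 against 10.5 dpp and 4 for the difference between D30 and D16. Scaled to the somatic genes, 4 were called for 36.5 dpp against 22.5 dpp, 1 for D16 against D4, 0 for D30 against D16, 0 for D4 against 10.5 dpp, 8 for D16 against 22.5 dpp, 4 for D30 against 36.5 dpp and 3 for the difference between D30 and D16. On that scale the sign turned at 22.5 dpp against 10.5 dpp for Acta2 (0.29), Cnn1 (0.83), Tpm2 (0.72), Myl9 (0.31) and Dcn (0.43), at 36.5 dpp against 22.5 dpp for Dcn (0.31), at D16 against 22.5 dpp for Myl9 (-0.77), and at D30 against 36.5 dpp for Acta2 (-0.13), Myh11 (-0.43), Cnn1 (-0.48), Tagln (-1.38), Tpm2 (-0.68) and Myl9 (-0.057). With only the groups compared in the fit, 1 member was called for D4 against 6.5 dpp, 0 for D30 against D16 and 9 for D4 against 10.5 dpp. With fresh libraries only, 0 were called for D4 against 6.5 dpp, 4 for D16 against 22.5 dpp and 1 for the difference between D16 and D4, and the Bgn/Dcn difference turned to 0.041 and Actg2/Acta2 was no longer past the threshold. DESeq2 called 4 members for D16 against 22.5 dpp, the fit without the filter 1 for D4 against 10.5 dpp, and library size alone 1 for the difference between D16 and D4. The share of all genes called is given above for some of these settings only. Without that share, a change in a count cannot be called particular to the members. The cause of these changes was not tested.

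Whether the replicate numbers pair the libraries is not given in the sources used here. Deviations of same-numbered libraries correlated from -0.34 to 0.66. These values cannot settle it, as deviations in a group of 2 libraries mirror each other. With the replicate block, 1 member was called for D16 against D4, 0 for D30 against D16 and 1 for the difference between D16 and D4, and 6 ratios passed. Leaving out 1 library at a time, the members called ranged from 4 to 8 for 22.5 dpp against 10.5 dpp, 7 to 9 for 36.5 dpp against 22.5 dpp, 1 to 3 for D4 against 6.5 dpp, 1 to 2 for D16 against D4, 0 to 1 for D30 against D16, 0 to 2 for D4 against 10.5 dpp, 1 to 3 for D16 against 22.5 dpp, 8 to 9 for D30 against 36.5 dpp, 0 to 1 for the difference between D16 and D4, and 7 to 8 for that between D30 and D16. For these counts of members the share of all genes called is not given, so their changes cannot be called particular to the members. The ratios past the threshold ranged from 5 to 6. Without 1 library, Dcn at 36.5 dpp against 22.5 dpp ranged from -1.53 to 0.098, Tagln at D30 against 36.5 dpp from -0.00280 to 0.67, and the Bgn/Dcn difference from -0.33 to 0.27, the extremes coming from the 36.5 dpp libraries. TMM-scaled library sizes moved 18 of 70 stage means by more than 1 SD. The correlations without 6.5 dpp CSF replicate 3 were added after seeing the data, and no sign turned.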

Other observations

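The fresh 6.5 dpp library left out of every comparison (replicate 1) had lower levels than the other 6.5 dpp libraries for 9 of the 10 members, as it had for 33.9% of all genes tested. Acta2 measured 85.1 CPM there, against 516 to 748 in the 4 libraries used. Myl9 measured 115 CPM against 285 to 369, Tpm2 16.3 against 61.7 to 84.4, Dcn 345 against 504 to 1460 and Myh11 44.1 against 60.2 to 268. Actg2, at 6.7 CPM, lay within their range. Its 9 germ cell markers summed to 2137 CPM, against 855 to 1494, and its 6 Leydig markers to 127 CPM, against 612 to 934.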
